A study of Mus musculus with 18 samples.

Results

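The genes described here are 10 regulators of the G1 phase of the cell cycle, the D-type cyclins Ccnd1, Ccnd2 and Ccnd3, the E-type cyclin Ccne1, the Cdk inhibitors Cdkn1a, Cdkn1b, Cdkn1c, Cdkn2a and Cdkn2b, and Myc. They were chosen by symbol from the 23951 genes of an FPKM table (fragments scaled for transcript length and for the number of mapped fragments), and all 10 were found there. RNA-seq had been performed on 18 libraries of cells sorted from mouse ear skin, with 3 mice in each of 6 groups. DKO* mice carry floxed alleles of JunB and c-Jun (JunB f/f c-Jun f/f) with Cre-ERT under the K5 promoter, which is active in basal keratinocytes, and the mT/mG reporter, in which Cre turns Tomato into GFP. Control mice (Co) carry the K5-driven Cre and mT/mG too, with JunB and c-Jun wild-type or heterozygous for the floxed alleles. All mice, males and females of a mixed background, received 4 daily injections of 2 mg tamoxifen at 8 weeks of age, and ear skin was taken at day 7. CD45+ cells were gated out, and 2 gates were used, one for CD49f-high CD34+ bulge hair follicle stem cells (HF-SC) and one for CD49f-high CD34- basal keratinocytes (b-KC). In each, the GFP cells of the DKO* mice 814, 815 and 817 are termed mutant, the Tom cells of the same mice are termed non-mutant, and the Co cells came from mice 810, 825 and 828. The model is thus mosaic, the 4 DKO* populations share their mice, and the Tom cells were taken from inflamed skin. The reporter reads recombination at its own locus and not at JunB or c-Jun.

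D-type cyclins activate Cdk4 and Cdk6 and begin the phosphorylation of the retinoblastoma protein, and cyclin E with Cdk2 completes it, which frees E2F factors to switch on genes for DNA replication. The Cip/Kip proteins p21 (Cdkn1a), p27 (Cdkn1b) and p57 (Cdkn1c) act on cyclin-Cdk complexes, while the INK4 proteins p15 (Cdkn2b) and p16 (Cdkn2a) block Cdk4 and Cdk6. c-Jun is known to promote Ccnd1 and to restrain the p53-dependent transcription of Cdkn1a, whereas JunB is known to oppose Ccnd1 and to activate the p16 transcript. In skin, p21 and p57 are known in cells that leave the cycle, and Myc pushes epidermal stem cells out of their quiet state.

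The members lie on 5 chromosomes of NCBIM37 (mm9), the build the authors used, and the GENCODE annotation of that build lists each as protein-coding. Ccnd1 is at chr7:152115836-152125774 (minus strand), Ccnd2 at chr6:127075797-127101066 (minus), Ccnd3 at chr17:47642000-47736632 (plus) and Ccne1 at chr7:38883003-38892553 (minus). Myc is at chr15:61816946-61821929 (plus), Cdkn1a at chr17:29227924-29237667 (plus), Cdkn1b at chr6:134870419-134875531 (plus) and Cdkn1c at chr7:150644255-150646955 (minus). Cdkn2a, at chr4:88920377-88940557 (minus), and Cdkn2b, at chr4:88952198-88956941 (minus), are neighbours. Values are per gene, so p16 and p19Arf, which Cdkn2a encodes from separate first exons, cannot be told apart.

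RefSeq promoter sequences (GRCm38.p6) were matched for 6 of the 10 members, in 9 entries, and those of Cdkn1a, Cdkn2b and Ccne1 are shown, Cdkn1a and Cdkn2b for the motifs they hold and Ccne1 because it was called in all 4 DKO* populations. Each is the 250 bases before an annotated start, read 5′ to 3′ on the gene's strand. Capitals mark a p53 element in the first Cdkn1a promoter (chr17:29090729-29090978, plus strand) and a CRE-type element, to which AP-1 dimers with ATF proteins can bind, in that of Cdkn2b (chr4:89311033-89311282, minus). The second Cdkn1a entry (chr17:29093519-29093768, plus) and that of Ccne1 (chr7:38107491-38107740, minus) hold none of the motifs searched.
Cdkn1a, first start: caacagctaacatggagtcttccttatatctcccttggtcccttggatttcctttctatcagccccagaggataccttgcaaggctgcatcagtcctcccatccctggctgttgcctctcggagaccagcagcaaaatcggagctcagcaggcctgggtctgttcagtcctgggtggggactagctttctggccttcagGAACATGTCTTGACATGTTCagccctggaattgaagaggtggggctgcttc
Cdkn1a, second start: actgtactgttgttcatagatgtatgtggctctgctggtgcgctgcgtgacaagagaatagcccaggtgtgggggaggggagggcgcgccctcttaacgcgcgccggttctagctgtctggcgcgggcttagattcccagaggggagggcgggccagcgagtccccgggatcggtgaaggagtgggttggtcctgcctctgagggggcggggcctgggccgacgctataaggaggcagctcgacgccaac
Cdkn2b: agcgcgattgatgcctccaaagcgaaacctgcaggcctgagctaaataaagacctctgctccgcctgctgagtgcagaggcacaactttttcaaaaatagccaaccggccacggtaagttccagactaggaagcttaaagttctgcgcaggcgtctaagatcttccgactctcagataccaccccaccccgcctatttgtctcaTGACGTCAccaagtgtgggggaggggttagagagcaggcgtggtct
Ccne1: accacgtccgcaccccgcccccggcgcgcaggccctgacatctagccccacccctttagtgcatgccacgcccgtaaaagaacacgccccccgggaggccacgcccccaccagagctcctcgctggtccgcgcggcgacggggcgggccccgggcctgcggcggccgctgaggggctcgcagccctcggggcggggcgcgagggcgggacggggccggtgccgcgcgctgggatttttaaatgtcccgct

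Motifs were searched on both strands of the same 250 bases of all 32851 RefSeq promoters, and a match is a description of the letters only. TGACGTCA was found in 1.55% of all promoters and, of the 9 entries, in that of Cdkn2b, where it begins 46 bases before the start. The E2F letters TTTCCCGC or TTTGGCGC were in 1.30% of promoters and, of the 9 entries, in 1 of Cdkn2a, 99 bases before the start. The AP-1 letters TGACTCA or TGAGTCA, in 4.46% of promoters, and the E-box CACGTG, to which Myc with Max can bind, in 6.02%, were in 0 of the 9. The p53 element was taken as a pair of abutting p53 decamers with at most 1 position off outside their cores. It was added after the sequences had been read, was in 0.0457% of all promoters, and begins 51 bases before the first Cdkn1a start.

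Low FPKM values of genes with 1 annotated transcript fall on steps, which gave 16540000 to 26312000 fragments per library, with 78.2% to 82.8% of these values within 0.1 of a whole number of fragments. Jun and Junb, the genes that DKO* cells should lose, were at 30.4 to 88.4 FPKM (Jun) and 38.6 to 77.5 FPKM (Junb) in the GFP fraction of HF-SCs, where Co cells held 835 to 1086 and 436 to 463 FPKM. In b-KC GFP cells they were at 29.6 to 65.4 and 37.2 to 72.2 FPKM, against 876 to 1000 and 737 to 772 FPKM in Co cells. Tom cells lay between the 2 for both genes in both cell types, and mouse 817 had the lowest values among the GFP libraries and the highest among the Tom libraries. Cd34, which the gate uses, was at 161 FPKM or more in every HF-SC library and at 2.53 FPKM or less in every b-KC library. Krt15 was listed at 0 in the HF-SC Co library of mouse 828, although its other values in HF-SC were 2848 FPKM or more, and Krt14 had a listed 0 in 1 library of b-KC GFP and 2 of b-KC Tom cells. A value of exactly 0 in this table is therefore not read as absence. The summed FPKM of 8 endothelial markers was 426 to 1411 in HF-SC Tom cells, 51.7 to 82.5 in HF-SC Co cells, 1.71 to 29.5 in HF-SC GFP cells and 9.36 or less in b-KCs.

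In control cells, Myc and the D-type cyclins were the most abundant members beside Cdkn1a, and the cell types differed in which D-type cyclin led. In HF-SC Co cells the order by mean FPKM was Ccnd3 (71.3 ± 7.43, SD, n = 3), Myc (69.6 ± 2.44), Cdkn1a (59.4 ± 8.05), Ccnd2 (21.9 ± 1.89), Ccnd1 (19.7 ± 10.5), Cdkn1c (7.35 ± 0.905), Cdkn1b (6.18 ± 0.674), Cdkn2b (2.44 ± 0.122) and Ccne1 (1.69 ± 0.524). The ranges of Myc and Ccnd3, Myc and Cdkn1a, Ccnd3 and Cdkn1a, Ccnd2 and Ccnd1, and Cdkn1c and Cdkn1b overlapped. In b-KC Co cells it was Cdkn1a (230.8 ± 31.0), Myc (195 ± 29.8), Ccnd2 (106 ± 13.6), Ccnd1 (42.7 ± 8.93), Ccnd3 (39.6 ± 3.95), Cdkn2b (12.0 ± 2.76), Ccne1 (4.61 ± 1.60), Cdkn1b (2.54 ± 0.315) and Cdkn1c (1.61 ± 0.353). The ranges of Cdkn1a and Myc, and of Ccnd1 and Ccnd3, overlapped. FPKM is scaled for transcript length, so these levels can be set beside each other.

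**Figure D1:**
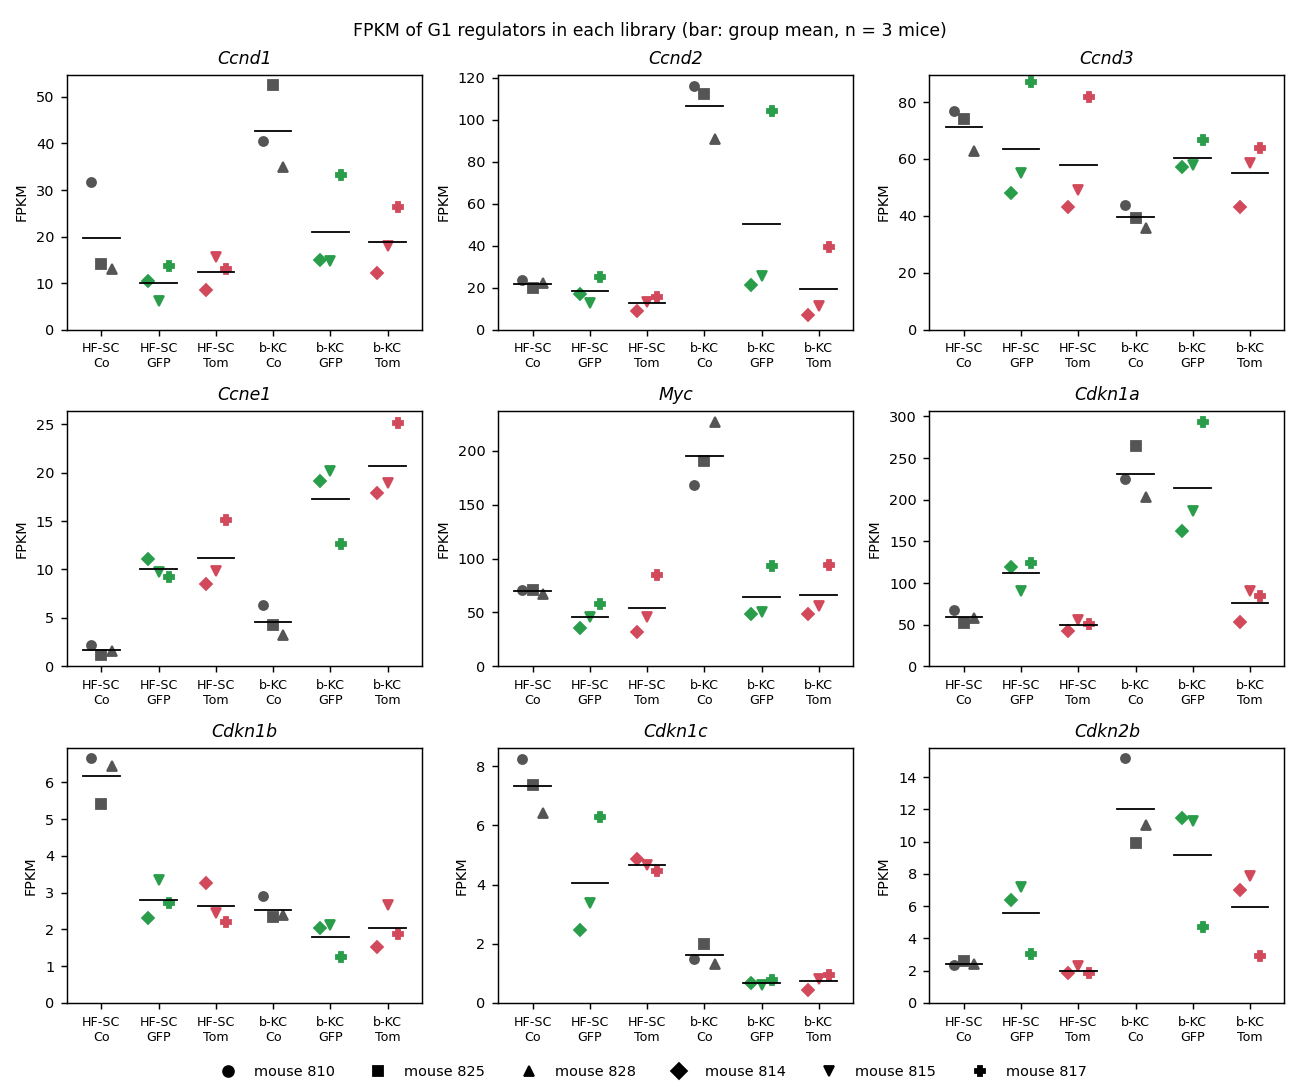
FPKM (vertical axes, linear from 0, a scale for each gene) of the 9 members above the filter in the 18 libraries, by group; each symbol is a mouse and the bar is the mean of 3 mice. Ccne1 is higher in each DKO* library than in the Co libraries of its cell type, while in Cdkn1a the GFP and Tom libraries separate.

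Of the 10 members, 9 reached 1 FPKM in 3 or more of the 18 libraries and were tested, with 12751 genes in all. Cdkn2a did not pass. It was listed at 0 in 17 libraries and at 0.0508 FPKM in the b-KC Tom library of mouse 814, which is worth between 0.913 and 0.998 of a fragment over its annotated transcript lengths. Tests were made with limma on log2(FPKM + 1), which understates the change of low genes such as Cdkn1c, and a gene was called at a Benjamini-Hochberg adjusted p under 0.05.

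All 9 tested members differed between HF-SC Co and b-KC Co cells, 3 higher and 6 lower in HF-SCs, where 24.6% of all genes tested were called higher and 27.3% lower. The 3 that were higher in HF-SCs were Ccnd3 (1.80-fold in mean FPKM), Cdkn1b (2.43-fold) and Cdkn1c (4.58-fold), the genes of cyclin D3, p27 and p57. For Cdkn1c, the HF-SCs of Co mice 810, 825 and 828 held 8.24, 7.38 and 6.43 FPKM and their b-KC counterparts 1.49, 2.001 and 1.32 FPKM, a difference of 1.68 ± 0.21 (log2, SE; limma adjusted p = 8.70e-06). Every HF-SC value was thus above every b-KC value, and within the mice the ratio was 3.69 to 5.51. Cdkn1b differed by 1.02 ± 0.18 on the log2 scale (adjusted p = 0.000174) and Ccnd3 by 0.83 ± 0.23 (adjusted p = 0.00781, and 0.0570 without mouse 825).

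Higher in b-KC Co cells were Ccnd1 (2.17-fold), Ccnd2 (4.87-fold), Ccne1 (2.73-fold), Myc (2.81-fold), Cdkn1a (3.89-fold) and Cdkn2b (4.94-fold). The adjusted p-values of limma for these 6 ran from 4.71e-06 for Cdkn1a to 0.0189 for Ccnd1, whose call was lost without mouse 825 (adjusted p = 0.189) and without mouse 828 (adjusted p = 0.0905). In each of the 9 members the 2 groups did not overlap, which fixes the direction within the 3 mice. Lack of overlap was not counted over all genes tested, so it is not read as a trait of the members. A fit with the mouse as a block called the same 9. The proliferation genes Mki67, Top2a, Pcna, Mcm2, Mcm5, Ccnb1 and Cdk1 summed to 117 to 141 FPKM in HF-SC Co cells and to 282 to 319 FPKM in b-KC Co cells, and their part in these differences was not tested. The suprabasal markers Krt1, Krt10, Ivl, Lor and Sbsn summed to 401 to 529 FPKM in HF-SC Co and 3831 to 4857 FPKM in b-KC Co cells, and their part was not tested either. The fibroblast markers Col1a1, Col1a2, Col3a1, Pdgfra, Dcn and Lum summed to 45.9 to 95.5 FPKM in HF-SC Co and 4.28 to 6.16 FPKM in b-KC Co cells, with none of the 6 at 0 in either and each higher in every HF-SC than in every b-KC library. They moved with Ccnd3, Cdkn1b and Cdkn1c, and their part was not tested. The endothelial sum, given before for HF-SC Co cells, was 1.20 to 2.52 FPKM in b-KC Co cells.

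Between DKO* and control cells, 4 of the 9 tested members were called in HF-SC GFP cells (2 higher, 2 lower), 3 in the Tom HF-SCs (1 higher, 2 lower), 5 in the GFP b-KCs (1 higher, 4 lower) and 7 in the Tom b-KCs (1 higher, 6 lower). Of all genes tested, 18.5% were called higher and 20.0% lower in HF-SC GFP cells, 22.3% and 22.1% in the Tom HF-SCs, 20.3% and 21.3% in the GFP b-KCs, and 22.6% and 23.3% in the Tom b-KCs. The counts depended on single mice. Without mouse 817 they were 9 in GFP and 6 in Tom HF-SCs, where 51.5% and 59.4% of all genes were then called in either direction. In GFP b-KCs the count was 2 without mouse 815 or without mouse 825, where 20.5% and 29.4% of all genes were called. It was 3 without mouse 810, 814 or 828 or without the low-value filter. These fits called 4331, 3696, 3464 and 5275 genes in all, beside 5301 with all mice and the filter. The GFP and Tom comparisons of a cell type share their 3 Co libraries. In bulk samples, fewer cells of a type and less RNA per cell cannot be told apart.

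Ccne1, the gene of cyclin E1, rose in all 4 DKO* populations. In HF-SCs it was at 2.24, 1.20 and 1.62 FPKM in the Co cells of mice 810, 825 and 828, at 11.1, 9.77 and 9.18 FPKM in the GFP cells of mice 814, 815 and 817, and at 8.53, 9.82 and 15.1 FPKM in their Tom cells. The means were 5.94-fold and 6.60-fold above Co, with log2 differences of 2.05 ± 0.24 (limma adjusted p = 9.31e-06) and 2.16 ± 0.24 (adjusted p = 4.62e-06). All 6 DKO* libraries lay above the 3 Co libraries.

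In b-KCs, Ccne1 was at 6.37, 4.24 and 3.23 FPKM in Co cells, at 19.1, 20.2 and 12.7 FPKM in GFP cells and at 17.9, 18.9 and 25.2 FPKM in Tom cells. It was 3.76-fold and 4.48-fold above Co, by 1.72 ± 0.24 (limma adjusted p = 9.55e-05) and 1.97 ± 0.24 (adjusted p = 1.76e-05) on the log2 scale, again with no overlap. These 4 calls were kept under every alternative at the same threshold, with adjusted p-values no higher than 0.00533. The proliferation genes summed to 281 to 372 FPKM in GFP and 365 to 472 FPKM in Tom HF-SCs, and to 442 to 570 FPKM in GFP and 634 to 742 FPKM in Tom b-KCs, above Co in each case, and their part in the rise of Ccne1 was not tested.

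Of the D-type cyclins, Ccnd1 and Ccnd2 were called lower in b-KCs of both DKO* fractions, while the mean of Ccnd3 was higher there without a call. In b-KCs, Ccnd1 fell in GFP cells (2.04-fold lower mean, log2 difference -1.07 ± 0.39, limma adjusted p = 0.0362) and in Tom cells (2.27-fold lower, -1.18 ± 0.39, adjusted p = 0.0207). Its values were 40.6, 52.5 and 35.0 FPKM in Co, 14.96, 14.7 and 33.2 FPKM in GFP and 12.2, 18.1 and 26.3 FPKM in Tom cells, so the groups did not overlap, although the GFP library of mouse 817 lay near the lowest Co library. The first call was lost without mouse 814, 815, 825 or 828 (adjusted p = 0.0564 to 0.168) or without the filter (adjusted p = 0.0645), and the second without mouse 814, 815 or 825 (adjusted p = 0.0609 to 0.106). In HF-SCs, where Ccnd1 was at 31.8, 14.2 and 13.1 FPKM in Co, 10.4, 6.21 and 13.6 FPKM in GFP and 8.50, 15.6 and 13.1 FPKM in Tom cells, the groups overlapped and neither comparison was called (adjusted p = 0.0934 and 0.263). Without mouse 817 the fall in HF-SC GFP cells was called (-1.08, adjusted p = 0.0179).

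Ccnd2 showed the largest fall among the members, in b-KC Tom cells, from 116, 112 and 90.9 FPKM in Co to 7.05, 11.3 and 39.5 FPKM in mice 814, 815 and 817. The mean was 5.52-fold lower, with a log2 difference of -2.75 ± 0.54 (limma adjusted p = 0.000883). In b-KC GFP cells Ccnd2 was at 21.4, 25.7 and 104 FPKM, so that mice 814 and 815 lay below all Co libraries and mouse 817 among them. The fall there (-1.43 ± 0.54, adjusted p = 0.0463) was lost under 7 of 11 alternatives, among them a fit of the 2 groups alone (adjusted p = 0.0750), with adjusted p up to 0.231 without mouse 815, and was kept without mouse 817 (adjusted p = 2.2e-06). In HF-SCs Ccnd2 was at 23.6, 19.9 and 22.1 FPKM in Co, 16.9, 12.8 and 25.3 FPKM in GFP and 8.83, 13.2 and 15.8 FPKM in Tom cells. The GFP libraries overlapped Co (-0.29 ± 0.54, adjusted p = 0.701), and without mouse 817 the difference was called (-0.54, adjusted p = 0.0386). All 3 Tom libraries lay below the Co libraries, but the difference was not called (-0.78 ± 0.54, adjusted p = 0.261), and it was called without mouse 817 (-0.95, adjusted p = 0.00129) and in a fit of the 2 groups alone (adjusted p = 0.0314).

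Ccnd3 was not called in any of the 4 comparisons in the fit of all 6 groups on log2(FPKM + 1), and some alternatives called it. In b-KCs it was at 43.7, 39.3 and 35.8 FPKM in Co, 57.0, 57.8 and 66.6 FPKM in GFP and 43.1, 58.5 and 63.9 FPKM in Tom cells, with log2 differences of 0.60 ± 0.23 (limma adjusted p = 0.0517) and 0.45 ± 0.23 (adjusted p = 0.126). Its mean was 1.53-fold and 1.39-fold that of Co. The GFP libraries all lay above the Co libraries, while the Tom library of mouse 814 lay within their range. The GFP difference was called under 4 of 11 alternatives, which were the mouse as a random block (adjusted p = 0.0264), a fit of the 2 groups alone (0.00806), a pseudocount of 0.1 (0.0497) and leaving out mouse 817 (0.53, adjusted p = 0.00726). The Tom difference was called under 2 of 11, a fit of the 2 groups alone (adjusted p = 0.0443) and leaving out mouse 814 (0.62, adjusted p = 0.0480). In HF-SCs Ccnd3 was at 76.9, 74.1 and 62.8 FPKM in Co, with the GFP libraries at 47.9, 55.2 and 87.1 FPKM and the Tom libraries at 43.1, 49.2 and 81.9 FPKM. Mouse 817 was above all Co libraries and the other 2 mice below them in both fractions, and without mouse 817 both differences were called (-0.46, adjusted p = 0.0186, and -0.61, adjusted p = 0.00279).

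As shares of the summed D-type cyclin FPKM, Ccnd3 held 63.6% ± 5.22 in HF-SC Co cells and 69.1% ± 5.34 and 69.4% ± 5.69 in HF-SC GFP and Tom cells (SD, n = 3 each). In b-KC Co cells Ccnd2 led with 56.4% ± 1.46, and it held 33.4% ± 15.4 in their GFP and 18.2% ± 10.6 in their Tom counterparts, where Ccnd3 held 50.8% ± 15.8 and 61.7% ± 10.8. The mice differed widely, since Ccnd2 was 22.9%, 26.1% and 51.04% of the sum in the b-KC GFP cells of mice 814, 815 and 817. The share of Ccnd1, tested by an exact two-sided permutation test whose smallest p for 3 against 3 is 0.1, was 16.8%, 11.0% (p = 0.3) and 15.3% (p = 0.7) in the Co, GFP and Tom cells of HF-SCs and 22.5%, 15.8% (p = 0.1) and 20.1% (p = 0.3) in those of b-KCs. Adjusted over these 4 tests the exact p-values were 0.4, 0.7, 0.4 and 0.4. The sum itself was 189 ± 23.4 FPKM in b-KC Co and 93.3 ± 34.0 FPKM in b-KC Tom cells.

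**Figure D2:**
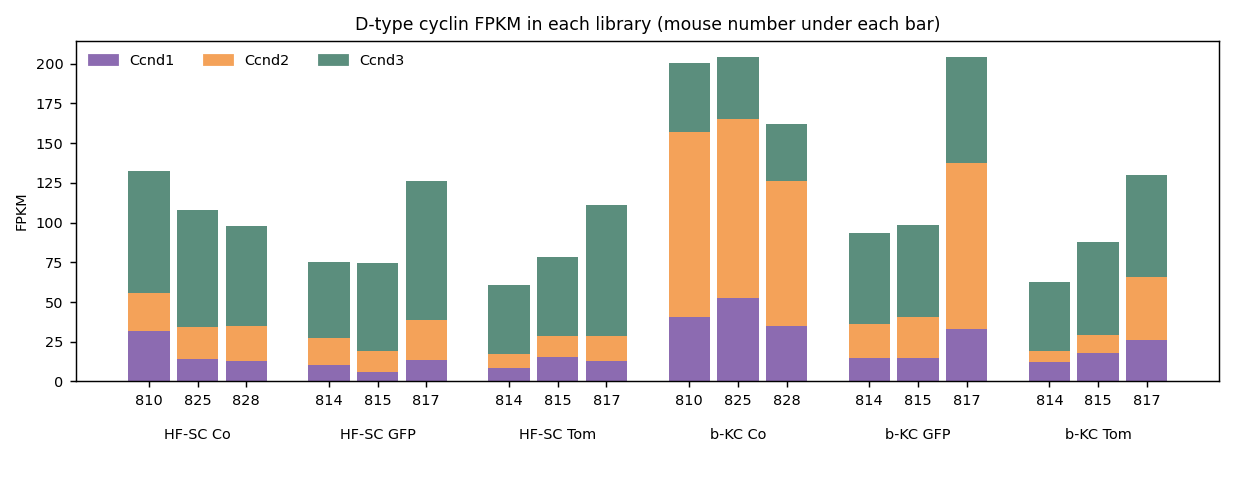
Stacked FPKM of Ccnd1, Ccnd2 and Ccnd3 (vertical axis, linear from 0) in each of the 18 libraries, with the mouse number under each bar and the group below. Ccnd2 makes up 55.0% to 57.9% of the bars of b-KC Co cells and 11.3% to 30.5% of those of b-KC Tom cells.

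Myc, a transcription factor that drives growth and G1 entry, fell in b-KCs of both DKO* fractions. It was at 168, 191 and 227 FPKM in Co, at 48.1, 50.7 and 93.0 FPKM in GFP and at 48.8, 56.0 and 93.9 FPKM in Tom cells of mice 814, 815 and 817. The mean was 3.06-fold and 2.95-fold lower, by -1.65 ± 0.33 (limma adjusted p = 0.00120) and -1.59 ± 0.33 (adjusted p = 0.00114) on the log2 scale. No DKO* library reached the lowest Co library, and both calls were kept under every alternative at this threshold, with adjusted p-values no higher than 0.0253. In HF-SCs Myc was at 71.1, 70.9 and 66.8 FPKM in Co, 35.1, 45.4 and 57.7 FPKM in GFP and 32.01, 45.5 and 84.5 FPKM in Tom cells. The GFP libraries lay below the Co libraries and the Tom libraries overlapped them, and neither difference was called (-0.61 ± 0.33, adjusted p = 0.151, and -0.47 ± 0.33, adjusted p = 0.256). Without mouse 817 both were called (-0.78, adjusted p = 0.00146, and -0.85, adjusted p = 0.000678). The GFP difference was also called in a fit of the 2 groups alone (adjusted p = 0.0297).

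Of the Cip/Kip inhibitors, Cdkn1a was called higher in HF-SC GFP cells and lower in b-KC Tom cells. In HF-SCs it was at 68.0, 52.0 and 58.1 FPKM in Co, 119.5, 90.8 and 124 FPKM in GFP and 42.8, 55.4 and 51.4 FPKM in Tom cells. It rose 1.88-fold in GFP cells (0.89 ± 0.23, limma adjusted p = 0.00638), every GFP library being above every Co library, and the Tom libraries overlapped Co (-0.25 ± 0.23, adjusted p = 0.405). In b-KCs it was at 224.8, 264 and 203 FPKM in Co, 162, 186 and 294 FPKM in GFP and 52.9, 90.4 and 85 FPKM in Tom cells. It fell 3.03-fold in Tom cells (-1.62 ± 0.23, adjusted p = 6.34e-05), all 3 being below every Co library, while the GFP libraries lay on both sides of the Co range (-0.15 ± 0.23, adjusted p = 0.633).

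Cdkn1b and Cdkn1c, which HF-SC Co cells held at the highest levels, fell in HF-SCs of both fractions. Cdkn1b was at 6.67, 5.41 and 6.45 FPKM in Co, 2.31, 3.34 and 2.73 FPKM in GFP and 3.27, 2.44 and 2.19 FPKM in Tom cells. It was 2.21-fold lower in GFP (-0.92 ± 0.18, limma adjusted p = 0.000674) and 2.35-fold lower in Tom cells (-0.99 ± 0.18, adjusted p = 0.000319), with no overlap and with both calls kept under every alternative at this threshold. Cdkn1c was at 8.24, 7.38 and 6.43 FPKM in Co, 2.45, 3.38 and 6.30 FPKM in GFP and 4.86, 4.68 and 4.46 FPKM in Tom cells, 1.82-fold and 1.58-fold lower (-0.79 ± 0.21, adjusted p = 0.00785, and -0.55 ± 0.21, adjusted p = 0.0444). All DKO* libraries lay below Co, but the first call was lost without mouse 814 or 815 (adjusted p = 0.0601 and 0.0712) and the second under 6 of 11 alternatives (adjusted p up to 0.146).

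In b-KCs, Cdkn1c was at 1.49, 2.001 and 1.32 FPKM in Co, 0.677, 0.603 and 0.766 FPKM in GFP and 0.421, 0.825 and 0.955 FPKM in Tom cells, and fell in both (-0.62 ± 0.21, limma adjusted p = 0.0280, and -0.59 ± 0.21, adjusted p = 0.0321). These groups did not overlap, yet the calls were lost under 3 and 6 of 11 alternatives, with adjusted p up to 0.143 and 0.140. Cdkn1b was at 2.90, 2.33 and 2.38 FPKM in Co, and its differences were not called in GFP (-0.35 ± 0.18, adjusted p = 0.122) or Tom cells (-0.24 ± 0.18, adjusted p = 0.275). Cdkn1a held 81.4% ± 0.965 of the summed Cip/Kip FPKM in HF-SC Co cells, 94.2% ± 1.73 in HF-SC GFP cells and 87.1% ± 2.62 in HF-SC Tom cells, and 96.3% to 99.3% in each b-KC library of the DKO* mice.

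Cdkn2b, the INK4 member that passed the filter, was at 2.35, 2.57 and 2.39 FPKM in the Co, 6.40, 7.21 and 3.02 FPKM in the GFP and 1.87, 2.27 and 1.87 FPKM in the Tom cells of HF-SCs. The GFP libraries were all above the Co libraries, with mouse 817 nearest to them, and the difference was not called (0.86 ± 0.34, limma adjusted p = 0.0546). It was called when the mouse was a random block (adjusted p = 0.0286), in a fit of the 2 groups alone (adjusted p = 0.0331), with a pseudocount of 0.1 (adjusted p = 0.0442) and without mouse 817 (1.18, adjusted p = 2.86e-05). In b-KCs Cdkn2b was at 15.2, 9.92 and 11.0 FPKM in Co, 11.5, 11.3 and 4.73 FPKM in GFP and 7.01, 7.90 and 2.90 FPKM in Tom cells. It fell in Tom cells (2.03-fold lower, -0.98 ± 0.34, adjusted p = 0.0276), a call lost without the low-value filter (adjusted p = 0.0511) and without mouse 810 (0.118) or 828 (0.0675), and it was not called in GFP cells (-0.42 ± 0.34, adjusted p = 0.328).

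**Figure D3:**
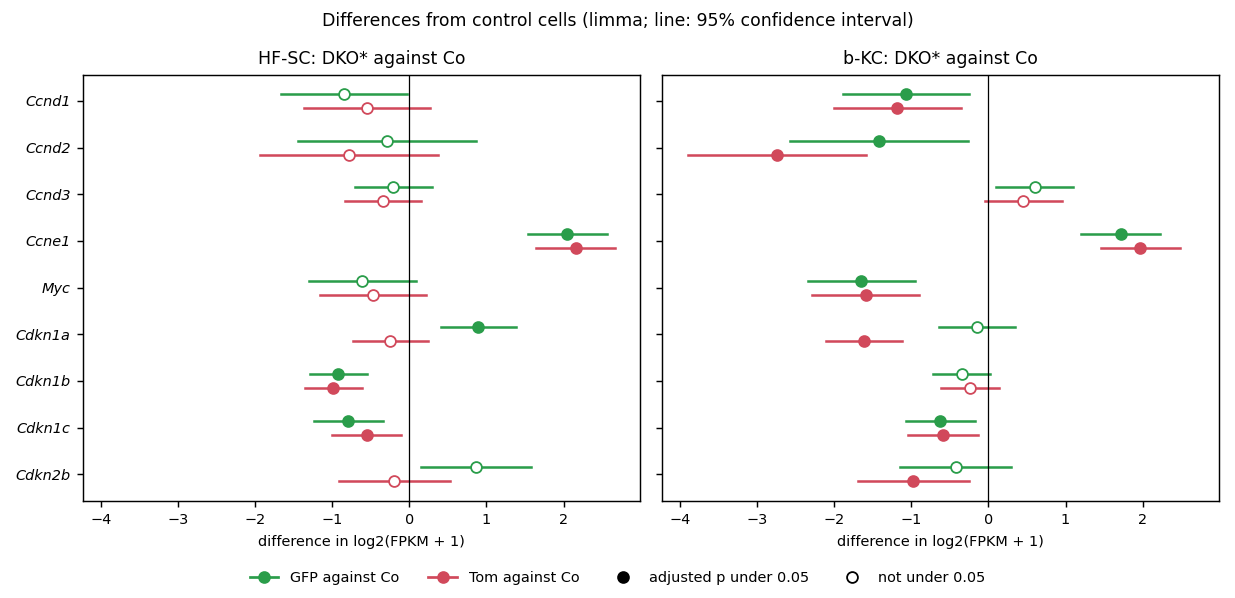
Difference in log2(FPKM + 1) between DKO* and Co cells (horizontal axis) for the 9 members tested, in HF-SCs and b-KCs; points are limma estimates, lines their 95% confidence intervals, and filled points have an adjusted p under 0.05. Ccne1 is the gene whose 4 points are filled and above 0, while the GFP and Tom intervals of Cdkn1a do not overlap in either cell type.

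Marker genes moved with these groups, and their part in the members' differences was not tested. In HF-SCs, the suprabasal markers summed to 702 to 1588 FPKM in GFP and 577 to 744 FPKM in Tom cells, above the Co range given before, with none of the 5 at 0. In GFP cells this held for Krt1, Krt10 and Ivl, while Lor and Sbsn overlapped Co. In Tom cells it held for Krt1 and Ivl, while Lor and Sbsn lay below every Co library and Krt10 overlapped them, and the mean log2(FPKM + 1) of the list was 5.03 to 5.60 there and 5.02 to 5.56 in Co cells. The 6 basal keratinocyte markers summed to 6930 to 7777 FPKM in Co, 7299 to 8231 FPKM in GFP and 9010 to 10919 FPKM in Tom HF-SCs. Of these, Krt14 was above every Co library in both fractions (2085 to 2479 FPKM in Co, 4050 to 4612 in GFP and 5704 to 6787 in Tom cells), and Krt5, Trp63 and Col17a1 were below every Co library in both. Itga6, the gene of CD49f, was above every Co library in GFP cells (117 to 168 against 87.7 to 106 FPKM). It overlapped Co in Tom cells, and Itgb4 overlapped Co in both fractions.

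Of the 7 bulge markers, 6 (all but Krt15) were below every Co library in both DKO* fractions of HF-SCs, with Lgr5 at a median of 156 FPKM in Co, 50.6 in GFP and 35.1 in Tom cells and Lhx2 at 109, 35.9 and 26.4 FPKM. The endothelial markers, whose sum was highest in HF-SC Tom cells, had Pecam1 at 66.3 to 234 FPKM there and at 12.9 FPKM or less in HF-SC Co cells. The fibroblast sum overlapped Co in both DKO* fractions of HF-SCs, and in each it was lowest in mouse 817, at 19.4 FPKM in GFP and 13.9 FPKM in Tom cells. The summed FPKM of 5 melanocyte markers was 2.71 to 4.51 in Co HF-SCs, 5.26 to 15.9 in GFP HF-SCs and 2.06 to 8.58 in Tom HF-SCs. That of 7 leukocyte markers was 15.1 and 11.8 in the GFP and Tom HF-SCs of mouse 817 and at most 3.71 in the other HF-SC libraries, and each GFP library (3.42 or more) was above each Co library (3.39 or less). The sum of 4 pericyte markers was at most 2.29 FPKM in any library and was above Co in all 4 DKO* populations, as was Acta2 in 3 of them, and Rgs5 was at 0 in every Co library.

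In b-KCs the suprabasal sum was below Co, at 1952 to 2390 FPKM in GFP and 1380 to 3338 FPKM in Tom cells, and so were Krt10, Lor and Sbsn in both fractions. Krt1 overlapped Co in both (884 to 1148 FPKM in GFP, 592 to 2442 FPKM in Tom and 909 to 1073 FPKM in Co cells). Ivl overlapped Co in GFP cells, with a median of 42.9 FPKM beside 17.5 FPKM in Co, and lay below Co in Tom cells. The basal keratinocyte sum, with the listed zeros of Krt14 in it, was 16068 to 17362 FPKM in Co, 6305 to 10369 FPKM in GFP and 5780 to 16073 FPKM in Tom b-KCs. The bulge sum was 3102 to 3165 FPKM in Co, 536 to 1169 FPKM in GFP and 181 to 702 FPKM in Tom b-KCs, and Krt15, Lhx2, Sox9, Nfatc1 and Lgr5 were below every Co library in both fractions. The leukocyte sum was 0.723 to 0.762 FPKM in Co and 1.54 to 2.06 FPKM in GFP b-KCs, and overlapped Co in Tom cells. The endothelial sum was 4.72 to 9.36 FPKM in Tom b-KCs, above Co. Of its 8 genes, Egfl7 (3.27 to 4.78 FPKM, against 0.333 to 0.632 in Co) and Plvap lay above Co there, and the others overlapped it. Egfl7 was above Co in GFP b-KCs as well (1.13 to 4.82 FPKM). The melanocyte sum was 1.11 to 2.001 FPKM in Tom b-KCs, below the 2.73 to 3.93 FPKM of Co. The fibroblast sum was 5.85 FPKM or less in both fractions of b-KCs.

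GFP and Tom cells came from the same mice, so this comparison sets cells termed mutant against cells termed non-mutant in the same inflamed skin. The 2 fractions of HF-SCs also differed in markers, whose part was not tested. Their endothelial sum was 1.71 to 29.5 FPKM in GFP and 426 to 1411 FPKM in Tom cells, and Ivl was at 20.7 to 54.1 and 7.75 to 11.9 FPKM. Cdkn1a was called in both cell types and was the 1 member of the 9 called in either, higher in GFP cells. Of all genes tested, 2.83% were called higher in GFP and 5.80% lower in HF-SCs, and 1.19% higher and 0.518% lower in b-KCs. The mean of Cdkn1a was 2.24-fold higher in HF-SC GFP cells (1.14 ± 0.23, limma adjusted p = 0.00399) and 2.81-fold higher in b-KC GFP cells (1.47 ± 0.23, adjusted p = 0.00363). Within mice 814, 815 and 817 the GFP to Tom ratio was 2.79, 1.64 and 2.42 in HF-SCs and 3.07, 2.06 and 3.46 in b-KCs. The GFP and Tom libraries did not overlap in either cell type, so any pairing of them gives this direction, and both cell types come from the same mice. The call in b-KCs was lost in a fit of the 2 groups alone (adjusted p = 0.148) and without mouse 815 (adjusted p = 0.0641).

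Cdkn2b was higher in the GFP than in the Tom cells of each mouse as well, with ratios of 3.43, 3.18 and 1.62 in HF-SCs and 1.64, 1.43 and 1.63 in b-KCs. It was not called (1.06 ± 0.34, limma adjusted p = 0.0666 in HF-SCs, and 0.55 ± 0.34, adjusted p = 0.642 in b-KCs). The HF-SC difference was called when the mouse was a random block (adjusted p = 0.00868) and without mouse 817 (1.35, adjusted p = 4.08e-05), and was not called with a fixed block. Ccnd2 in b-KCs was higher in the GFP cells of each mouse, with ratios of 3.04, 2.28 and 2.63, and was not called in the fit without the block (1.32 ± 0.54, adjusted p = 0.322). The mouse as a fixed block gave an adjusted p of 0.0142 for it and the mouse as a random block one of 0.0741, and without mouse 817 the fit without the block gave 0.0027.

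Myc had GFP to Tom ratios of 0.985, 0.905 and 0.990 in the b-KCs of mice 814, 815 and 817 (log2 difference -0.06, 95% interval -0.75 to 0.63) and of 1.10, 0.998 and 0.683 in HF-SCs (interval -0.83 to 0.55). Ccne1 differed by -0.11 in HF-SCs (interval -0.62 to 0.41) and by -0.25 in b-KCs (interval -0.76 to 0.26). Differences of up to the ends of these intervals are not excluded. Ccnd1, Ccnd3, Cdkn1b and Cdkn1c were not called either, and their ratios ran from 0.397 for Ccnd1 in the HF-SCs of mouse 815 to 1.61 for Cdkn1c in the b-KCs of mouse 814. Without mouse 817, Cdkn1c was called lower in GFP than in Tom HF-SCs (-0.57, adjusted p = 0.0326, beside -0.24 with all mice).

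**Figure D4:**
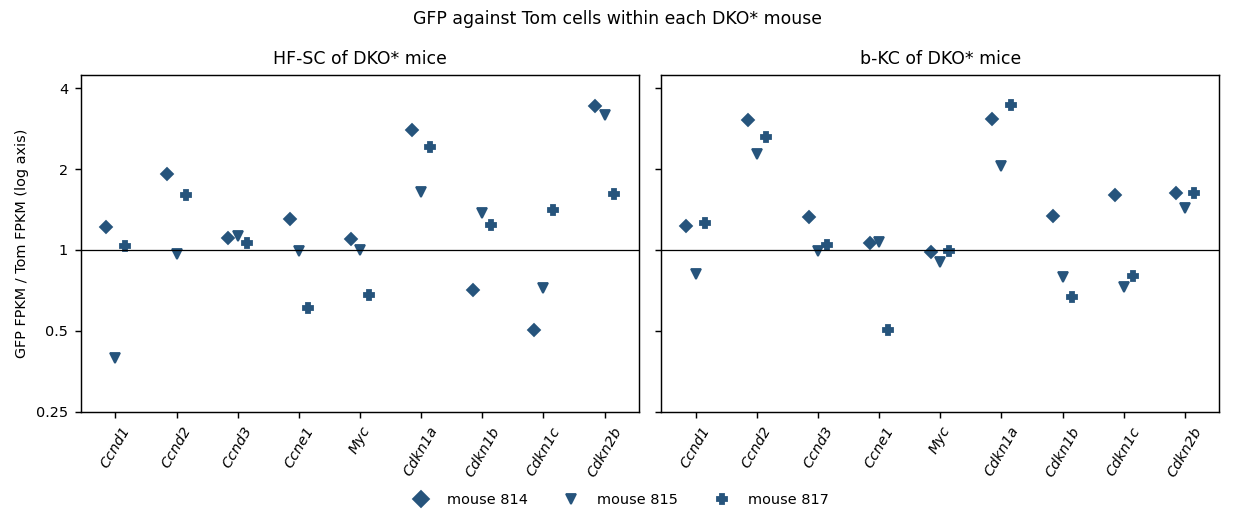
Ratio of GFP to Tom FPKM (vertical axis, log scale) within each DKO* mouse for the 9 members, in HF-SCs and b-KCs; each symbol is a mouse and the line marks a ratio of 1. All 6 points of Cdkn1a lie between 1.64 and 3.46, and the 3 points of Myc in b-KCs lie between 0.905 and 0.990.

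Whether a DKO* population changed differently in HF-SCs than in b-KCs was tested by the interaction term. For the GFP cells, 7.31% of all genes tested had a change that was higher in HF-SCs and 5.22% a lower one, and for the Tom cells 10.3% and 5.58%. Cdkn1a was the 1 member of the 9 called in each, with a change that was higher in HF-SCs by 1.04 ± 0.33 for GFP (limma adjusted p = 0.0474) and by 1.37 ± 0.33 for Tom cells (adjusted p = 0.00927) on the log2 scale. The first was lost under 7 of 11 alternatives, with adjusted p up to 0.185, and the second under 1, without mouse 825 (adjusted p = 0.0639). Myc, which fell in b-KCs and was not called in HF-SCs, was not called by this test (1.04 ± 0.46, adjusted p = 0.153 for GFP, and 1.12 ± 0.46, adjusted p = 0.118 for Tom cells), and neither was Cdkn1b (-0.58 ± 0.25, adjusted p = 0.140, and -0.75 ± 0.25, adjusted p = 0.0515). Without mouse 817 Myc was called in both interactions (adjusted p = 0.00261 for GFP and 0.00539 for Tom cells), as were Ccnd2 and Ccnd3. Cdkn2b was then called for GFP cells (adjusted p = 0.00112), and so was Cdkn1b (0.045). Without mouse 814 Cdkn1b was called for Tom cells (adjusted p = 0.0296).

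When the mouse was a random block, 4 members were called in the GFP interaction, Cdkn1a, Ccnd3 (adjusted p = 0.0274), Cdkn2b (0.0167) and Myc (0.0277). In the Tom interaction 5 were called, Cdkn1a, Ccnd2 (0.0189), Ccnd3 (0.0268), Cdkn1b (0.0185) and Myc (0.0168). The block moved each count by more than 1.5 times, and with it 22.6% and 23.9% of all genes tested were called in the GFP and Tom interactions in either direction.

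The other genes of G1 control were taken from 5 lists with 51 members, all of which passed the filter. In HF-SCs, 19 were called higher and 5 lower in GFP cells, and 20 higher and 11 lower in Tom cells. In b-KCs these counts were 14 and 10 in GFP cells and 14 and 12 in Tom cells. As shares of the 51, these were 37.3% higher and 9.80% lower in GFP HF-SCs, beside 18.5% and 20.0% of all genes tested, and 39.2% and 21.6% in Tom HF-SCs, beside 22.3% and 22.1%. In b-KCs they were 27.5% and 19.6% in GFP cells, beside 20.3% and 21.3%, and 27.5% and 23.5% in Tom cells, beside 22.6% and 23.3%, so the shares in Tom b-KCs were near those of all genes. Each list has 4 to 13 genes, and its counts stand beside these same shares of all genes. Their median log2 difference was 0.28 and 0.29 in GFP and Tom HF-SCs and 0.09 and 0.09 in GFP and Tom b-KCs, while that of all genes tested was, in the same order, -0.05, -0.04, -0.03 and -0.02, and that of the 9 members -0.29, -0.47, -0.42 and -0.98.

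Among the 11 G1/S cyclins, kinases and their regulators, 5 and 7 were higher in GFP and Tom HF-SCs and 5 and 5 in GFP and Tom b-KCs, and 2 were lower, both in GFP b-KCs. Ccna2, the S-phase cyclin A2, rose from 8.74 FPKM in HF-SC Co to 45.4 FPKM in GFP and 59.8 FPKM in Tom cells (2.25 and 2.65 on the log2 scale, limma adjusted p = 5.27e-08 and 8.37e-09). Ccne2, the second E-type cyclin, rose in HF-SC GFP cells from 1.395 to 4.78 FPKM (adjusted p = 0.000562) and in HF-SC Tom cells to 5.37 FPKM (adjusted p = 0.000183). Cks1b, which helps the Skp2 ligase to take p27, rose in all 4 populations, in HF-SC Tom cells from 32.9 to 92.2 FPKM (adjusted p = 0.000165) and in b-KC Tom cells from 59.6 to 169.8 FPKM (adjusted p = 0.000177). Fbxw7, of the ubiquitin ligase that takes cyclin E and Myc, fell in b-KC GFP cells from 17.1 to 9.07 FPKM (adjusted p = 0.0121).

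Of the 13 pocket protein and E2F genes, 7 rose and 1 fell in GFP HF-SCs, 8 rose and 2 fell in Tom HF-SCs, 2 rose and 1 fell in GFP b-KCs, and 6 rose and 1 fell in Tom b-KCs. E2f7 and E2f8, E2F members that repress, rose in HF-SC GFP cells from 0.191 to 2.52 FPKM and from 0.608 to 4.597 FPKM (limma adjusted p = 0.000330 and 7.42e-05). Tfdp1, the partner of E2F factors, rose in all 4 populations, and Rbl2, the gene of p130, fell in all 4, in b-KCs from 17.7 FPKM in Co to 8.15 FPKM in GFP and 9.09 FPKM in Tom cells (adjusted p = 0.00107 and 0.00236).

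Of the 10 genes of the Myc network, 2 rose and 2 fell in HF-SC GFP cells, 1 rose and 5 fell in HF-SC Tom cells, 1 rose and 4 fell in b-KC GFP cells, and 1 rose and 5 fell in b-KC Tom cells. Mycl, a paralog of Myc, fell in b-KCs from 67.0 FPKM in Co to 11.1 FPKM in GFP and 11.1 FPKM in Tom cells (-2.52 on the log2 scale in both, limma adjusted p = 8.61e-07 and 5.25e-07). Its change differed between the cell types by 2.15 for GFP (adjusted p = 0.000309) and 1.91 for Tom cells (adjusted p = 0.000417). Mxd4, which competes with Myc for Max, fell in all 4 populations, and Mxd3 of the same family rose in all 4.

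Of p53 and 12 genes it is known to switch on, 4 rose in HF-SC GFP cells with none falling, 3 rose and 2 fell in HF-SC Tom cells, 5 rose and 2 fell in b-KC GFP cells, and 0 rose and 5 fell in b-KC Tom cells. In b-KC Tom cells, where Cdkn1a fell, Btg2 went from 254 to 69.2 FPKM, Trp53inp1 from 34.1 to 4.96 FPKM and Mdm2 from 23.6 to 12.4 FPKM (limma adjusted p = 6.59e-06, 0.000873 and 0.00103). In HF-SC Tom cells, where Cdkn1a was not called, Btg2 and Trp53inp1 fell too (adjusted p = 0.000903 and 0.0156), while Plk2 and Sesn2 rose. In b-KC GFP cells, where Cdkn1a was not called either, Ccng1, Bax, Sesn2 and Plk2 rose. In HF-SC GFP cells, where Cdkn1a rose, Sesn2, Pmaip1, Plk2 and Ccng1 rose. Between GFP and Tom cells, 1 of the 13 was higher in HF-SCs, Ccng1 (55.1 against 24.0 FPKM, adjusted p = 0.0186), and 3 were higher in b-KCs, where 2.83% and 1.19% of all genes tested were called higher in GFP cells of HF-SCs and b-KCs. The 3 were Btg2 (166 against 69.2 FPKM, adjusted p = 0.00622), Plk2 (102 against 46.8 FPKM, adjusted p = 0.00252) and Bax (57.9 against 33.8 FPKM, adjusted p = 0.0152). The median log2 difference of the 13 was 0.54 in HF-SCs and 0.60 in b-KCs, beside 0.02 and -0.01 for all genes tested. Outside the p53 list, Cdkn2c of the G1/S list was lower in GFP than in Tom HF-SCs (4.73 against 8.67 FPKM, adjusted p = 0.00256). In b-KCs Rbl1 was lower in GFP cells (12.4 against 18.9 FPKM, adjusted p = 0.0180) and Cbx7 higher (4.54 against 2.53 FPKM, adjusted p = 0.0452). The calls between GFP and Tom cells depended on the fit, since the 51 listed genes gave 2 calls in HF-SCs and 5 calls in b-KCs, but 0 and 0 in fits of the 2 groups alone or without mouse 815, and 11 and 9 when the mouse was a random block.

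Of the Polycomb genes Bmi1, Ezh2, Cbx7 and Cbx8, whose products are known to silence Cdkn2a, Cbx7 fell in all 4 populations, in b-KC Tom cells from 7.56 to 2.53 FPKM (limma adjusted p = 1.65e-05), and Ezh2 rose in all 4, in HF-SC Tom cells from 9.90 to 16.2 FPKM (adjusted p = 0.000165). Bmi1, at 35.0 FPKM in HF-SC Co and 8.68 FPKM in b-KC Co cells (adjusted p = 1.44e-05), rose in b-KC Tom cells to 16.2 FPKM (adjusted p = 0.0194). In the control cells, 9 of the 11 G1/S genes and 8 of the 13 pocket protein and E2F genes were lower in HF-SCs than in b-KCs, and 3 of the 4 Polycomb genes were higher, beside 27.3% of all genes tested that were lower and 24.6% that were higher.

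The genes whose log2(FPKM + 1) followed each member most closely over the 18 libraries are given as a description. The points share mice and cell types, so no p is given. Closest to Ccne1 were Rrm2, the small subunit of ribonucleotide reductase (Pearson r = 0.987), Mthfd2 (0.983) and Ftsj3 (0.978). Rrm2 went from a mean of 16.3 FPKM in HF-SC Co to 71.4 FPKM in GFP and 83.1 FPKM in Tom cells, and from 39.4 to 107 and 142 FPKM in b-KCs. Closest to Myc were Hlf (0.971), Zfp652 (0.970) and Elmsan1 (0.962), to Ccnd1 Ino80 (0.914), Gsk3b (0.908) and Ell3 (0.895), and to Ccnd2 Efemp1 (0.952), Serpinb7 (0.949) and Kazald1 (0.948). Ccnd3 had the lowest of these correlations, with Tmeff1 (0.884), Rab15 (0.840) and Ampd3 (0.804).

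Among the inhibitors, Cdkn1a was followed by Mob3b (0.945), Wnt6 (0.943) and Rgcc (0.917), and Cdkn2b by Dgat2 (0.983), Rhbg (0.981) and Ly6g6e (0.976). Dgat2, an enzyme of triglyceride synthesis, was at a mean of 23.8, 51.4 and 22.7 FPKM in the Co, GFP and Tom cells of HF-SCs and at 130.1, 86.7 and 57.4 FPKM in b-KCs. Cdkn1b was followed by Tpra1 (0.948), Gng4 (0.935) and Zfp647 (0.931), and Cdkn1c by Sncg (0.977), Trpv4 (0.972) and Col6a1 (0.971). Sncg was at a mean of 178, 43.1 and 62.1 FPKM in the Co, GFP and Tom cells of HF-SCs and at 10.1 FPKM or less in the b-KC groups. Col6a1, a collagen gene, was at a mean of 148, 20.6 and 40.6 FPKM in the Co, GFP and Tom cells of HF-SCs and at 3.24 FPKM or less in the b-KC groups.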

How the data were processed

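RNA-seq of 18 libraries (6 groups of 3 mice, grouped by the labels) was analysed, none left out. Single-end reads of 51 bases were mapped by the authors with TopHat 2.0.10 and Bowtie 1.0.0 to the mm9 genome (NCBI37), allowing 2 mismatches and multihits, and they deposited FPKM values made with Cufflinks (2.2.1 in the submitters' processing notes), with no strand information. Their Cufflinks test cannot be repeated from FPKM. Multihits can blur genes with near-identical copies.

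The 12751 of 23951 genes that reached 1 FPKM in 3 or more libraries were tested on log2(FPKM + 1) with limma 3.58.1 in R 4.3.3 (trend), with 1 mean per group and no block, with Benjamini-Hochberg adjustment within each comparison. Python 3.11.15 with scipy 1.17.1 gave the exact permutation tests. On simulated data for HF-SC GFP against Co, with 12751 genes, a log2 change of 1 was called in 77 of 100 genes and one of 2 in 97 of 100, as were 8 of 12551 unchanged genes. The changed genes were drawn from those with a higher mean level, and the simulated libraries were independent, with no shared mice. The rates were therefore not measured for low genes such as Cdkn1b, Cdkn1c and Cdkn2b.

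Libraries with the same mouse number come from the same animal, and their deviations from the group means correlated at 0.0838 to 0.700. The text names all 10 members, per comparison up to 4 called genes of each list with the largest change, the 3 genes most like each member, Jun and Junb. Members and lists were chosen with earlier results of these data known. Alternatives were a pseudocount of 0.1, no filter, rescaled libraries, only the groups compared, the mouse as a block, each mouse left out, and adjusted p under 0.01 with a log2 change of at least 2. The p53 element was added after the sequences had been read.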

Additional observations from a re-analysis of the deposited data

Results flagged for a closer look

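The change of Cdkn1a against control cells differed between HF-SCs and b-KCs in both DKO* fractions by the interaction term of limma. For GFP cells the difference was 1.04 on the log2 scale (adjusted p = 0.0474, 0.00999 to 0.185 over its alternatives), and for Tom cells it was 1.37 (adjusted p = 0.00927, 0.00206 to 0.0639 over its alternatives). In GFP cells Cdkn1a was 1.88-fold above control in HF-SCs and 1.08-fold below it in b-KCs, and in Tom cells it was 1.19-fold and 3.03-fold below it.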

How the results depend on the processing

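Of the 32 member differences called, 19 were called under every alternative at the same threshold, and 27 of the 49 not called were called under none. The fit has 3 mice per group, and depth was known only from the steps of low values. An alternative call rule, adjusted p under 0.01 with a log2 change of at least 2, left 1 member each in GFP and Tom HF-SCs, 0 in GFP b-KCs and 1 in Tom b-KCs against Co, 1 between the Co cells and 0 in the 4 other comparisons, with 391, 521, 239, 351, 720, 252 (HF-SC GFP against Tom), 11 (b-KC GFP against Tom), 110 (GFP interaction) and 252 (Tom interaction) genes in all.

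The mouse numbers pair libraries of the same animal. With the mouse as a random replicate block, 2 members were called in HF-SC GFP against Tom, 4 in the GFP and 5 in the Tom interaction, in place of 1 each, and 2 with a fixed block in b-KC GFP against Tom. Beside the calls of Ccnd2, Ccnd3, Cdkn1b, Cdkn2b and Myc given in the report, the block changed no other call of a member. Over all genes the random block called 1729 in place of 1100 in HF-SC GFP against Tom, 614 in place of 218 in b-KC GFP against Tom, and 2884 and 3051 in place of 1597 and 2019 in the interactions, and the fixed block called 629 and 474 in the first 2.

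A pseudocount of 0.1 gave 2 members in HF-SC GFP against Tom, with 999 genes called in all, and 0 in the GFP interaction. No filter gave 3 in b-KC GFP against Co, with 5275 genes called in all, and 0 in the GFP interaction. Fitting only the groups compared gave 0 in b-KC GFP against Tom, with 3 genes called in all, and 375 in HF-SC GFP against Tom.

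Leaving out 1 mouse in turn gave 3 to 9 members in GFP and 2 to 6 in Tom HF-SCs, and 2 to 6 in GFP and 5 to 7 in Tom b-KCs, against Co, 1 to 3 in HF-SC and 0 to 2 in b-KC GFP against Tom, 0 to 6 in the GFP and 0 to 4 in the Tom interaction, and 7 to 9 between the Co cells. The highest counts in HF-SCs came without mouse 817. Against Co, these fits called 3285 to 6569 genes in GFP and 3959 to 7571 in Tom HF-SCs, and 2612 to 7575 in GFP and 3822 to 7349 in Tom b-KCs. The Ccnd1 share in HF-SC Tom cells against Co, -1.53 points, ran from -3.88 to 2.07 and turned positive without mouse 810 (2.07) or 817 (0.206). That in HF-SC GFP cells, -5.86 points, was -2.26 without 810, and that in b-KC Tom cells, -2.40 points, was -0.81 without 825. Log2 differences that were not called with all mice and turned direction with 1 mouse left out are given with their range. In HF-SC GFP against Tom, Ccnd1 ran from -0.58 to 0.15 (turned without 815), Ccne1 from -0.33 to 0.17 (817), Cdkn1b from -0.072 to 0.28 (815, and -0.015 without 817), Cdkn1c from -0.57 (called without 817) to 0.022 (814) and Myc from -0.27 to 0.064 (817). In b-KC GFP against Tom, Ccne1 ran from -0.42 to 0.090 (817), Cdkn1b from -0.29 to 0.013 (817) and Cdkn1c from -0.17 to 0.046 (815, and 0.026 without 817). Cdkn1a in b-KC GFP against Co ran from -0.40 to 0.028 (814). In the GFP interaction Ccnd1 ran from -0.10 to 0.64 (825, and -0.0079 without 814) and Cdkn1c from -0.44 to 0.066 (814), with 0.16 at a pseudocount of 0.1. In the Tom interaction Cdkn1c ran from -0.12 to 0.16 (814, and -0.062 without 825). Over all genes, leaving out 1 mouse called 424 to 2922 in HF-SC and 1 to 850 in b-KC GFP against Tom, 427 to 3921 in the GFP and 898 to 3243 in the Tom interaction, and as few as 2612 of 5301 in b-KC GFP and 3822 of 5857 in b-KC Tom against Co. Of the 51 listed genes, leaving out 1 mouse called 0 to 10 in HF-SC and 0 to 8 in b-KC GFP against Tom, 14 to 31 in place of 24 in b-KC GFP against Co, 2 to 20 in place of 12 in the GFP and 4 to 16 in place of 9 in the Tom interaction, and the random block called 18 and 16 in the interactions. The cause was not tested.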
